A study of Homo sapiens with 6 samples.

Results

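The genes described here are YAP1, WWTR1, TEAD1, VGLL1 and 6 target genes of the YAP and TEAD pathway, THBS1, CCN1, CCN2, ANKRD1, AMOTL2 and LATS2. They were chosen by name, as core members of the pathway and widely used readouts of it, with earlier results of these data known. They make up 10 of the 29816 genes in the deposited table. RNA came from KYSE-150, an established line of human esophageal squamous carcinoma cells. The cells had been transfected with si-NC, a negative control small interfering RNA, or with si-circTMEM45A, directed at the circular RNA circTMEM45A, and each of these 2 groups had 3 libraries. Both groups are thus transfected cells of 1 line, and no untransfected cells were analysed here. The time after transfection is not given in the sources used here.

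YAP1 and its paralog WWTR1 (also called TAZ) are transcriptional coactivators that do not bind DNA themselves. When the kinases of the Hippo pathway, LATS1 and LATS2, are inactive, both enter the nucleus and bind the TEAD proteins, which sit on short DNA words at promoters and enhancers and then drive growth and matrix genes. VGLL1 is a cofactor that binds TEAD proteins at the same surface as YAP1. Several targets feed back on the pathway, since LATS2 phosphorylates YAP1 and AMOTL2 holds it at junctions and actin.

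With si-circTMEM45A the targets moved in both directions. THBS1 and AMOTL2 fell, and CCN1, CCN2, LATS2, YAP1 and VGLL1 rose. TEAD1 and WWTR1 did not pass the test, and ANKRD1 was too low to test. In all, 5 of the 9 tested genes were higher and 2 lower at a limma adjusted p under 0.05, against 11.1% higher and 7.64% lower among all 12676 tested genes.

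The RefSeq promoter table (GRCh38.p14, 250 bases before to 50 after a start site) held 8 of the 10 genes, with 10 entries, and none for TEAD1 or CCN1. The sequence most often bound by TEAD proteins was searched as GGAATG and its reverse complement CATTCC, so that both strands were covered. At least 1 copy stood in an entry of 7 of the 8 genes, and 7 of the 10 entries held it, against 14.0% of all 35116 promoter entries. WWTR1, with 2 entries, was the gene without a copy. These genes are known in part because TEAD proteins act on them, so the count describes the set and is no independent result, and a copy of the word is not a measured binding site. The AP-1 word TGANTCA, which reads the same on both strands apart from its middle base and was searched separately, with overlaps of TEAD words allowed, was in an entry of 1 of the 8 genes, ANKRD1, against 7.71% of all entries.

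The promoters of CCN2 and THBS1 are shown because both hold the TEAD word and the genes changed in opposite directions. VGLL1 and AMOTL2 follow as a further gene that rose and the other gene that fell. Capitals mark the TEAD word, and each run is written 5′ to 3′ on the strand of the gene, at chr6:131951323-131951622 (minus), chr15:39580829-39581128 (plus), chrX:136531965-136532264 (plus) and chr3:134374398-134374697 (minus).
CCN2: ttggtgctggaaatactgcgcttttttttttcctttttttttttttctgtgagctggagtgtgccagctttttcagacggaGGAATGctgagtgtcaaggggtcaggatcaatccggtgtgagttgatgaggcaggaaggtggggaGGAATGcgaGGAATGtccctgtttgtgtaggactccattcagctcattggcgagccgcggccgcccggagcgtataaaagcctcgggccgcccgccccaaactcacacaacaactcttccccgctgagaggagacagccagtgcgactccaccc
THBS1: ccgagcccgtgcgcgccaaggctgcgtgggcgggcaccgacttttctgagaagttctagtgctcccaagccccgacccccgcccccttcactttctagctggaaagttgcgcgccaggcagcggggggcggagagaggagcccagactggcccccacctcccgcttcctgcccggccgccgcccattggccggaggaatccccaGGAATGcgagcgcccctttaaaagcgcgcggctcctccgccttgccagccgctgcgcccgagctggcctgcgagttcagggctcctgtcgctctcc
VGLL1: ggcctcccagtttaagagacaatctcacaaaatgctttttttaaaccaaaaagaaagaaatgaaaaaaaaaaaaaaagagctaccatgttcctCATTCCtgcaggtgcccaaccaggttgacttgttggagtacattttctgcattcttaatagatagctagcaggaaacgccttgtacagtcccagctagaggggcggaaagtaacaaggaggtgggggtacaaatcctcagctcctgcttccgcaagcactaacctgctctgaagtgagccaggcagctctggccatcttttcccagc
AMOTL2: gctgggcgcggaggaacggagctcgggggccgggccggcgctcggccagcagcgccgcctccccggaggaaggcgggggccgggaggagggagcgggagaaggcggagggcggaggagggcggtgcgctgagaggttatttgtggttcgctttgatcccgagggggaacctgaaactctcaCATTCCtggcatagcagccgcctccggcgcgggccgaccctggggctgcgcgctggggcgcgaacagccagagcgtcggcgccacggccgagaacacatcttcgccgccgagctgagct
CCN2 had 3 copies, whose first bases lay 169, 104 and 95 bases upstream of the start site, and 0.125% of all promoter entries held 3 or more. THBS1 had 1 copy at 46 bases upstream, VGLL1 1 copy at 157 and AMOTL2 1 copy at 69, in the second of its 2 entries. The promoter of YAP1 held 1 copy, 162 bases upstream, ANKRD1 2 copies, at 220 and 128, and LATS2 1 copy, 9 bases downstream. Genes that rose and genes that fell both held the word.

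**Figure D1:**
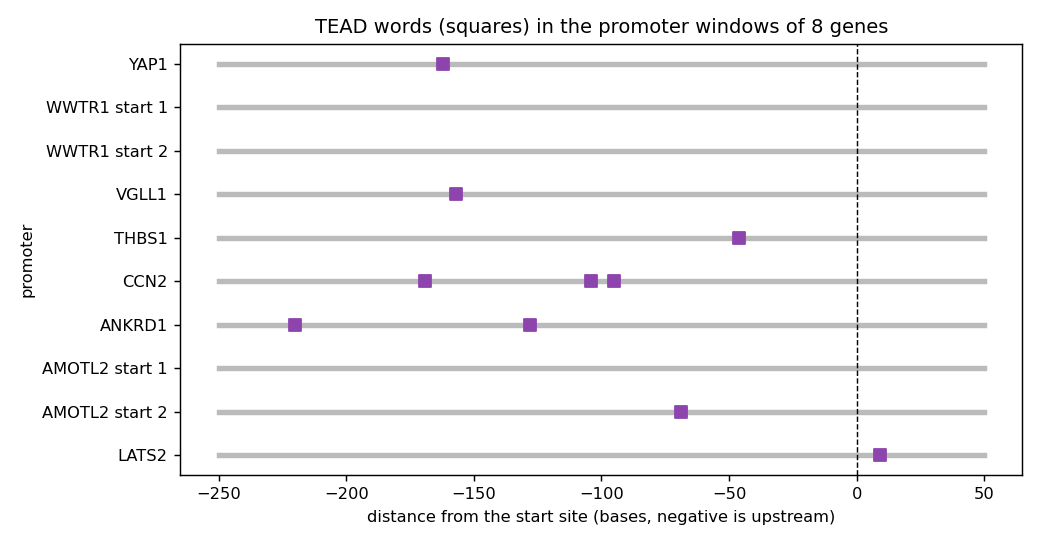
Position of the first base of each TEAD word (squares) in the promoter windows (grey bars) of the 8 genes with an entry, against the distance from the start site in bases. CCN2 has 3 words and ANKRD1 2, LATS2 has its word downstream of the start, and neither entry of WWTR1 holds one.

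The 6 libraries held 16636248 to 17323964 reads assigned to genes, and no 2 replicates of a group were alike within sampling noise (chi-square divided by its degrees of freedom 2.61 to 4.70). Since the labels name no separate cultures, the p-values rest on a spread between libraries that could be technical only. TMEM45A, the gene that hosts the targeted circle, fell from 3.12 ± 0.19 FPKM (SD, n = 3) with si-NC to 2.12 ± 0.22 FPKM with si-circTMEM45A. This is a gene-level value of polyA-selected RNA that does not separate linear from circular RNA. It is therefore no measure of the circle, whose level was not measured here. The limma call of TMEM45A (adjusted p = 0.0167) was lost under 5 of 16 alternatives, at adjusted p up to 0.0614. With median-of-ratios scaling 1078 genes were higher and 1206 lower in place of 1411 and 969, and without 1 library 775 to 1088 were higher and 548 to 857 lower. Of 12 squamous markers all were in the table and 10 were tested. Of these, 6 were lower, 1 was higher and 3 did not pass (all tested genes: 7.64% lower and 11.1% higher). KRT5, KRT14 and TP63, which mark basal squamous cells, were expressed but fell, while KRT17 rose from 70.5 ± 4.28 to 98.7 ± 5.89 FPKM. In bulk RNA, fewer cells of a type and less RNA per cell cannot be told apart.

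YAP1 (ENSG00000137693, chromosome 11, 102110461 to 102233423 in GRCh38) rose slightly. It stood at 28.2, 30.8 and 30.3 FPKM in si-NC replicates 1, 2 and 3 and at 34.5, 34.4 and 35.5 FPKM in the si-circTMEM45A replicates. All 3 si-circTMEM45A libraries were above all 3 si-NC libraries, and they lay close together. The mean rose by 16.9%, or 0.22 ± 0.04 on the log2(FPKM + 1) scale (SE; limma adjusted p = 0.0153), on 3002 to 3875 reads per library. Among tested genes 24.8% had a log2 fold change at least as large in size. Without si-circTMEM45A replicate 3 the limma call was lost (adjusted p = 0.0576, range over the alternatives 0.00063 to 0.0576).

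Its paralog WWTR1 (ENSG00000018408, chromosome 3, 149517235 to 149736714) was lower in abundance. It was at 6.45, 5.94 and 6.26 FPKM with si-NC and at 5.79, 5.16 and 6.10 FPKM with si-circTMEM45A, and the groups overlapped. The log2 fold change was -0.11 ± 0.07 (SE; limma adjusted p = 0.276), with a 95% interval of -0.27 to 0.04, which leaves room for a small decrease. In each library YAP1 RNA was more abundant per length than WWTR1 RNA, by a ratio of 4.8 ± 0.41 (SD, n = 3) with si-NC and 6.15 ± 0.45 with si-circTMEM45A. The ratio was higher in all 3 si-circTMEM45A libraries (two-sided exact permutation p = 0.1, the smallest this design can give). The values of YAP1 and WWTR1 given above fixed this separation, so it is no further result.

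TEAD1 (ENSG00000187079, chromosome 11, 12674591 to 12944483), one of 4 TEAD proteins that carry the DNA-binding domain, was nearly level. It stood at 25.4, 24.4 and 23.5 FPKM with si-NC and at 27.1, 24.7 and 24.4 FPKM with si-circTMEM45A. The groups overlapped, and the log2 fold change of 0.05 ± 0.05 (SE) had a 95% interval of -0.07 to 0.17 (limma adjusted p = 0.514). TEAD4, TEAD3 and TEAD2 were expressed too, at 26.9 ± 1.84, 20.4 ± 0.87 and 12.6 ± 0.28 FPKM with si-NC and at 29.9 ± 0.36, 22.1 ± 1.59 and 10.95 ± 0.85 FPKM with si-circTMEM45A (SD, n = 3), and none passed (limma adjusted p = 0.0922, 0.24 and 0.0657). TEAD2 passed with a lower value under 4 of 17 alternatives, median-of-ratios scaling among them (limma adjusted p = 0.0498, range over the alternatives 0.0308 to 0.169). The 4 TEAD genes together gave 84.3 ± 0.34 FPKM with si-NC and 88.3 ± 1.48 FPKM with si-circTMEM45A, and the share of TEAD1 in that sum, 28.8% ± 1.93 with si-circTMEM45A, overlapped between the groups (two-sided exact permutation p = 1).

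VGLL1 (ENSG00000102243, chromosome X, 136532152 to 136556807) rose. It was at 1.88, 1.99 and 2.34 FPKM in the si-NC libraries and at 6.08, 3.58 and 4.42 FPKM with si-circTMEM45A, so the groups did not overlap. Replicate 1 of si-circTMEM45A was the highest, and the spread within that group was wide. The means were 2.07 ± 0.24 and 4.69 ± 1.27 FPKM (SD, n = 3), a ratio of 2.27, with 0.87 ± 0.15 as the log2 fold change (SE; limma adjusted p = 0.0107). These values rest on 49 to 61 reads per si-NC library and 93 to 161 per si-circTMEM45A library. Counting error alone (exact Poisson 95% interval of the pooled reads) spanned 1.76 to 2.42 and 4.23 to 5.20 FPKM. Without si-circTMEM45A replicate 1 the log2 fold change, on the log2(FPKM + 1) scale, was 0.70, and the limma call held (adjusted p = 0.0141). The call was lost with no filter on low values (adjusted p = 0.0523, range over the alternatives 0.000413 to 0.0523).

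Relative to the TEAD proteins it can bind, VGLL1 RNA stayed scarce. It amounted to 2.46 ± 0.29 FPKM per 100 FPKM of the TEAD sum with si-NC and to 5.31 ± 1.47 with si-circTMEM45A (SD, n = 3), each library of the second group being above each of the first. YAP1 RNA was above VGLL1 RNA in every library. Of the other VGLL genes, VGLL4, which competes with YAP1 for TEAD and acts as a repressor, rose from 6.63 ± 0.19 to 9.49 ± 0.23 FPKM, by 0.46 ± 0.04 on the log2 scale (SE; limma adjusted p = 0.00161). VGLL3 was close to 0 in both groups and was not tested.

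**Figure D2:**
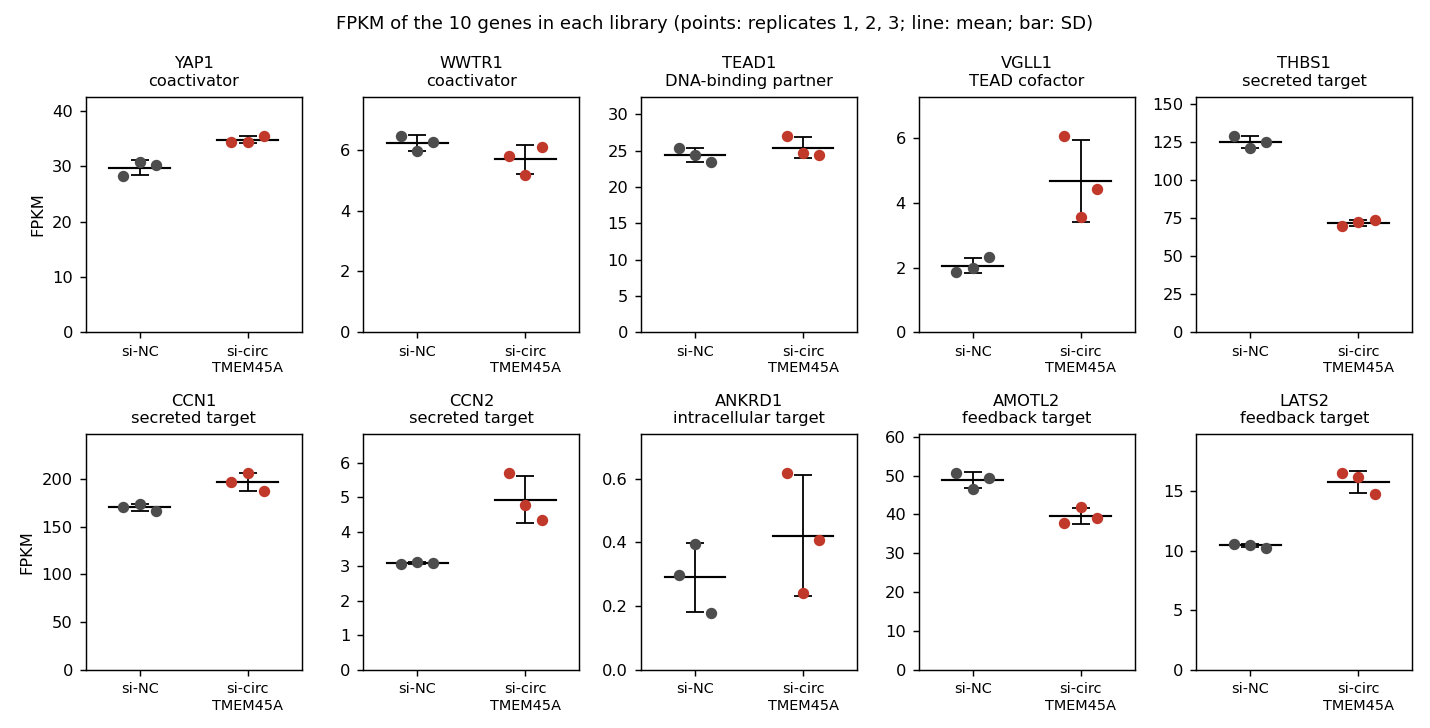
FPKM (y axis, from 0) of each of the 10 genes in the si-NC (grey) and si-circTMEM45A (red) libraries; points are replicates 1 to 3 from left to right, lines are means and bars are SD. The groups are apart for 7 genes and overlap for WWTR1, TEAD1 and ANKRD1.

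Among the secreted targets, THBS1 (ENSG00000137801, chromosome 15, 39581079 to 39599466) fell and the CCN genes rose. THBS1 encodes thrombospondin 1, a matrix glycoprotein that curbs angiogenesis and activates latent TGF-beta. It was at 129, 121 and 125 FPKM in the si-NC libraries and at 69.7, 72.6 and 73.5 FPKM with si-circTMEM45A. The gap between the groups was far wider than the spread within either. The mean was 42.4% lower with si-circTMEM45A, and the log2 fold change, -0.79 with an SE of 0.04 (limma adjusted p = 0.000313), was matched or exceeded in size by 1.03% of tested genes. With 10981 to 19938 reads per library it was the most deeply counted of the 10 genes, and its log2 fold change lay between -0.82 and -0.76 over 17 alternatives, all of which kept the call.

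CCN1 (ENSG00000142871, chromosome 1, 85580761 to 85583962), formerly CYR61, encodes a matricellular protein that binds integrins. It was the most abundant of the 10 genes per length, at 171, 174 and 167 FPKM with si-NC and at 197, 206 and 188 FPKM with si-circTMEM45A. The groups did not overlap, although the rise was small against the level. The log2 fold change was 0.21 ± 0.04 (SE; limma adjusted p = 0.0161), a mean increase of 15.5%. The limma call was lost with no filter on low values (adjusted p = 0.0633) and without si-NC replicate 3 (adjusted p = 0.0555), in a range over the alternatives of 0.000463 to 0.0633.

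CCN2 (ENSG00000118523, chromosome 6, 131948176 to 131951373), formerly CTGF, is the related matricellular protein most often used to read out YAP activity. Its level was low in these cells, at 3.06, 3.11 and 3.10 FPKM with si-NC and at 5.70, 4.76 and 4.34 FPKM with si-circTMEM45A. Every si-circTMEM45A library was above every si-NC library, and replicate 1 was the highest. The mean rose by 59.6%, or 0.53 ± 0.09 on the log2(FPKM + 1) scale (SE; limma adjusted p = 0.00807). The call held under all 16 alternatives that tested the gene (at FPKM of at least 5 it was left out). It rests on 121 to 123 reads per si-NC library and 176 to 229 per si-circTMEM45A library, and exact Poisson 95% intervals of the pooled reads, which cover counting error only, were 2.78 to 3.43 and 4.54 to 5.35 FPKM.

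The 3 secreted targets thus shifted against each other. CCN1 RNA was 1.37 ± 0.06 times THBS1 RNA per length with si-NC and 2.74 ± 0.16 times with si-circTMEM45A (SD, n = 3). CCN1 RNA was 55.1 ± 1.23 times CCN2 RNA with si-NC and 40.4 ± 5.02 times with si-circTMEM45A. For both ratios the groups did not overlap (two-sided exact permutation p = 0.1 for each). These ratios were chosen after the values were seen. For CCN1 to THBS1 the separation was fixed by the opposite changes of these genes, so it is no further result.

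ANKRD1 (ENSG00000148677, chromosome 10, 90912096 to 90921276), a nuclear and sarcomeric ankyrin repeat protein known as a strong YAP target, was barely detected. It was at 0.30, 0.39 and 0.18 FPKM with si-NC and at 0.62, 0.24 and 0.41 FPKM with si-circTMEM45A, on 6 to 21 reads per library. The groups overlapped, and no library reached the minimum of 1 FPKM. The pooled reads gave exact Poisson 95% intervals of 0.19 to 0.42 and 0.31 to 0.57 FPKM, which cover counting error only. With no filter on low values the log2 fold change was 0.13 (limma adjusted p = 0.625).

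The feedback genes AMOTL2 and LATS2 moved in opposite directions. AMOTL2 (ENSG00000114019, chromosome 3, 134355874 to 134375479), a motin scaffold protein that binds YAP1, was at 50.6, 46.4 and 49.4 FPKM with si-NC and at 37.7, 41.9 and 39.0 FPKM with si-circTMEM45A. All 3 si-circTMEM45A libraries were below the si-NC libraries. Its log2 fold change was -0.30 ± 0.05 (SE; limma adjusted p = 0.00955), a mean 19.0% lower, on 3879 to 5114 reads per library. The annotated RPL39P5 pseudogene and MIR6827 lie within it on the same strand, with at most 4 reads in any library.

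LATS2 (ENSG00000150457, chromosome 13, 20973032 to 21061547), the kinase that phosphorylates YAP1 and WWTR1, was at 10.6, 10.5 and 10.3 FPKM with si-NC and at 16.5, 16.2 and 14.7 FPKM with si-circTMEM45A. The si-NC libraries were almost equal and all lay below the si-circTMEM45A libraries. The log2 fold change was 0.55 ± 0.05 (SE; limma adjusted p = 0.0014), a mean increase of 51.3% on 970 to 1583 reads per library. AMOTL2 RNA was 4.67 ± 0.22 times LATS2 RNA with si-NC and 2.51 ± 0.20 times with si-circTMEM45A (SD, n = 3). These ratios did not overlap (two-sided exact permutation p = 0.1). The fall of AMOTL2 and the rise of LATS2 in every si-circTMEM45A library fixed this outcome, so it is no further result. Both feedback genes kept their direction and their limma call under all 17 alternatives. LATS1, the kinase most like LATS2, was at 7.09 ± 0.37 and 7.37 ± 0.43 FPKM and did not pass (log2 fold change 0.05 ± 0.06, SE; limma adjusted p = 0.597).

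**Figure D3:**
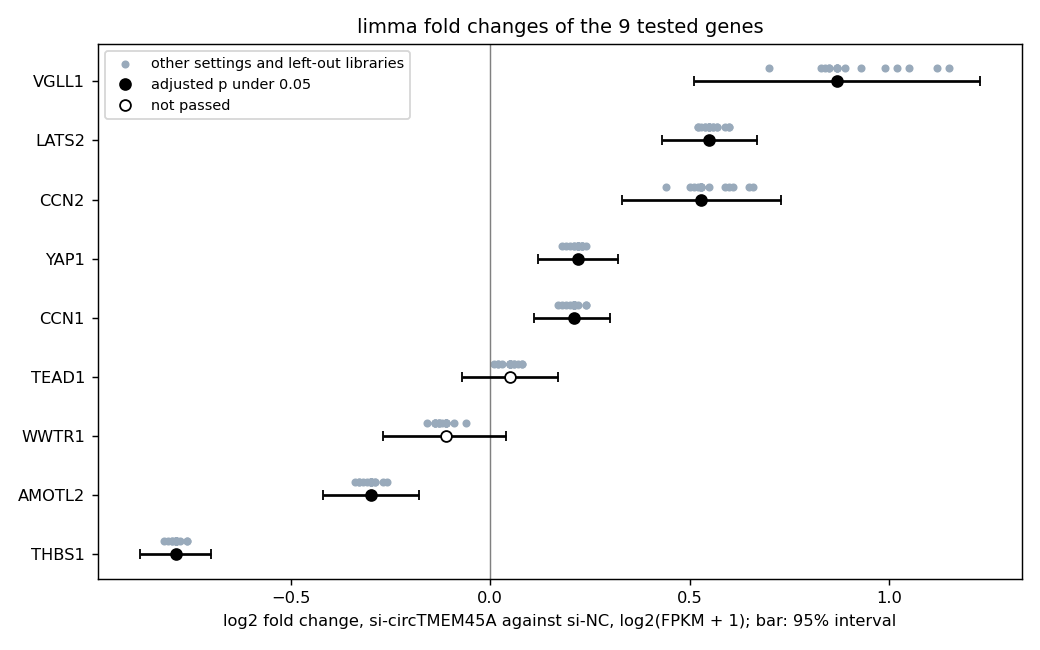
Log2 fold change (x axis, si-circTMEM45A against si-NC) of the 9 tested genes with 95% intervals; filled points passed a limma adjusted p of 0.05 and small grey points are the values under the alternatives. VGLL1 has the widest interval, 0.51 to 1.23, and no grey point of any gene lies on the other side of 0 from its main value.

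The 2 groups did not overlap for 7 of the 10 genes, 5 higher and 2 lower with si-circTMEM45A. Among all tested genes 23.3% did not overlap and were higher, and 16.0% did not overlap and were lower. With si-NC the order of the levels was CCN1, THBS1, AMOTL2, YAP1, TEAD1, LATS2, WWTR1, CCN2, VGLL1 and ANKRD1, and the ranges of neighbours did not overlap. The order was the same with si-circTMEM45A, but WWTR1, CCN2 and VGLL1, with means of 5.68, 4.93 and 4.69 FPKM, then overlapped with their neighbours among these 3. The distance from THBS1 to AMOTL2 narrowed, from 125 and 48.8 FPKM to 72.0 and 39.5 FPKM.

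Within the si-circTMEM45A group, replicate 1 lay farthest from the si-NC mean for 5 of the 7 called genes (VGLL1, THBS1, CCN2, AMOTL2 and LATS2). Replicate 2 lay farthest for CCN1 and replicate 3 for YAP1. For VGLL1 the distance on the log2(FPKM + 1) scale was 1.21 in replicate 1, 0.58 in replicate 2 and 0.82 in replicate 3, and for CCN2 it was 0.71, 0.49 and 0.39. THBS1 was more even, at -0.83, -0.77 and -0.76. Leaving out that library ended no limma call among the 7 genes.

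**Figure D4:**
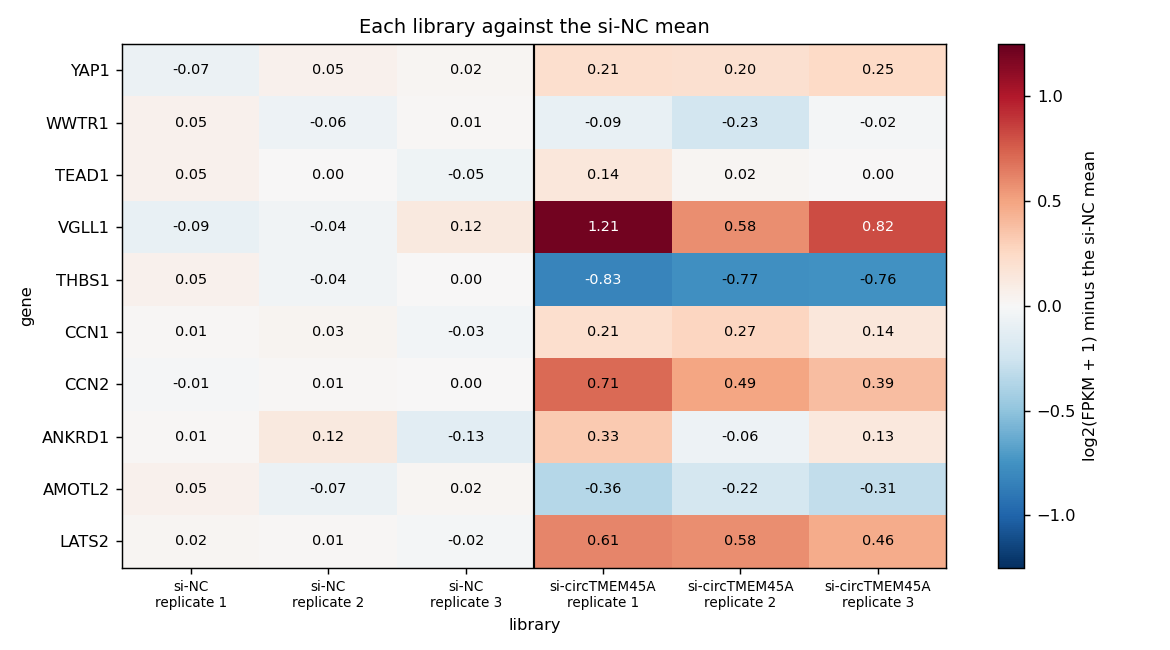
Difference of log2(FPKM + 1) from the si-NC mean for each gene (rows) and library (columns); red is higher, blue is lower. The 3 si-circTMEM45A libraries share the sign of the change for each gene that passed the test, and replicate 1 is the most extreme for VGLL1 and CCN2.

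The wider pathway was read from lists of TEAD and VGLL relatives, Hippo kinases and adaptors, and upstream regulators and proteins that bind YAP1, 44 genes in all, of which 43 were in the table and 38 were tested. Of these, 10 were higher, 5 were lower and 23 did not pass, beside 11.1% higher and 7.64% lower among all tested genes. The median log2 fold change was 0.05, beside 0.03 for all tested genes. The counts moved with single libraries, as did those of all tested genes. Leaving out si-NC replicate 1, 2 or 3 gave 6 higher genes each time, with 1, 2 and 1 lower. Among all tested genes these fits had 835, 821 and 879 higher and 591, 548 and 594 lower, in place of 1411 and 969. The fit that omitted si-circTMEM45A replicate 2 had 6 higher and 1 lower, and the one that omitted replicate 3 had 5 higher and 2 lower. For all tested genes these fits gave 798 and 775 higher and 573 and 566 lower.

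Of 12 kinases and adaptors, 3 were higher and 1 lower (all tested genes: 11.1% and 7.64%), so the lower count is near the background. MAP4K4, a kinase that can act on LATS kinases in parallel to the MST kinases, rose from 13.9 ± 0.25 to 17.7 ± 0.28 FPKM (SD, n = 3; limma adjusted p = 0.00255). MOB1A, the adaptor that activates LATS kinases, fell from 41.3 ± 0.94 to 32.6 ± 2.07 FPKM (limma adjusted p = 0.00616). Both calls held under all 17 alternatives. The MST kinases STK3 and STK4 and their adaptor SAV1 did not pass, with log2 fold changes of -0.10, -0.07 and -0.13. TAOK2, an upstream kinase, and STK38, a relative of the LATS kinases, were also called higher, with log2 fold changes of 0.23 each, but lost the limma call under 4 and 9 of 17 alternatives (adjusted p up to 0.0631 and 0.0969).

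Of 22 tested upstream regulators and YAP-binding proteins, 6 were higher and 4 lower (all tested genes: 11.1% and 7.64%), with a median log2 fold change of 0.02. WWC3, a scaffold of the KIBRA family that promotes LATS activity, rose from 9.67 ± 0.28 to 13.1 ± 0.33 FPKM (SD, n = 3; limma adjusted p = 0.00202), and FAT4, a giant protocadherin, from 3.07 ± 0.05 to 4.47 ± 0.20 FPKM (limma adjusted p = 0.00413). RASSF1, a scaffold that binds MST kinases, rose from 11.1 ± 0.38 to 14.1 ± 0.81 FPKM (limma adjusted p = 0.00798). These 3 kept their call in each alternative that tested them. WWC1, FAT1 and CTNNA1 among the higher genes, and NF2 (merlin), FRMD6, PTPN14 and AJUBA among the lower genes, changed less, with log2 fold changes of 0.12 to 0.21 and -0.23 to -0.13, and each lost its limma call under 6 to 8 of 17 alternatives. NF2 went from 10.3 ± 0.52 to 8.65 ± 0.52 FPKM and lost its call without any 1 library other than si-NC replicate 2 (adjusted p up to 0.111).

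A further list held 35 genes that are known from other systems as YAP or TAZ targets, among them PTPN14, AJUBA and TEAD4, which are also in the lists above. Of 28 tested, 10 were lower, 3 higher and 15 did not pass, beside 7.64% lower and 11.1% higher among all tested genes, so the higher count is near the background. The median log2 fold change of the list was -0.07, and that of the 9 tested genes above was 0.21. Without si-circTMEM45A replicate 3, 6 were lower, and 1 was higher without si-NC replicate 2 or 3 or any 1 si-circTMEM45A library. The counts of all tested genes also fell without 1 library, to 775 to 1088 higher and 548 to 857 lower.

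The lower targets included abundant membrane proteins. SLC7A5, the large neutral amino acid transporter, went from 1231 ± 42.6 to 820.1 ± 66.3 FPKM (SD, n = 3). F3, tissue factor, fell from 173 ± 9.68 to 129 ± 3.16 FPKM, MYOF, a ferlin of membrane repair, from 118 ± 1.88 to 94.4 ± 2.14 FPKM, and the receptor tyrosine kinase AXL from 90.0 ± 1.75 to 69.2 ± 4.26 FPKM. UGCG, which makes glucosylceramide, fell from 42.3 ± 3.07 to 27.5 ± 1.34 FPKM, and PHLDB2, a cortical anchor of microtubules, from 21.6 ± 0.67 to 17.4 ± 0.74 FPKM. These 6 had limma adjusted p values of 0.00181 to 0.00657 and kept their call under all 17 alternatives.

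The 3 higher targets were IGFBP3, a binding protein of insulin-like growth factors (2.11 ± 0.30 to 3.27 ± 0.18 FPKM; SD, n = 3), the collagen COL12A1 (17.1 ± 0.96 to 20.2 ± 0.87 FPKM) and CDC42EP3, an effector of CDC42 (7.43 ± 0.27 to 8.55 ± 0.35 FPKM). They lost their limma call under 2, 5 and 12 alternatives. For CDC42EP3 these included TPM, median-of-ratios scaling and quantile normalization (adjusted p = 0.0509, 0.0713 and 0.0743, range over the alternatives 0.00899 to 0.125).

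**Figure D5:**
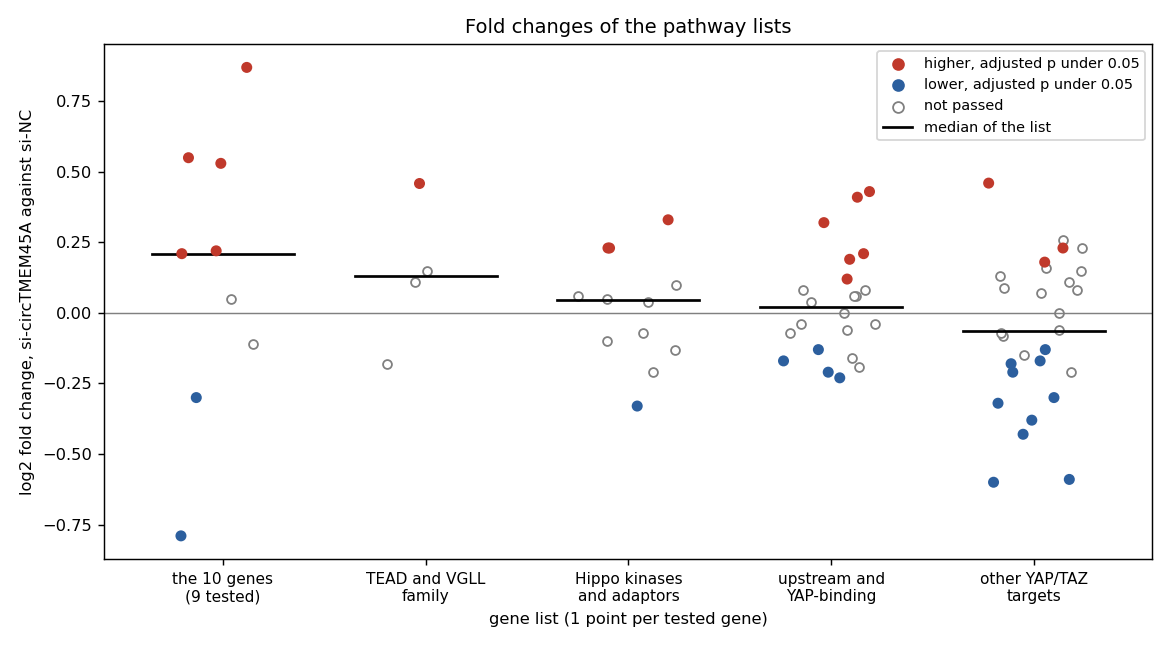
Log2 fold change (y axis) of each tested gene in the 5 lists; red and blue points passed a limma adjusted p of 0.05, open points did not, and lines are list medians. The medians are 0.21 for the 9 genes, 0.13, 0.05 and 0.02 for the pathway lists and -0.07 for the other targets.

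Words of 7 bases in 3′ UTRs were also compared, because 4 of them had earlier been picked on these data as more common in genes that fell. TGAAAGC was found in VGLL1, LATS2 and TEAD1, while GAAAGCA was found in THBS1, ANKRD1 and TEAD1. CCTGATC was found in THBS1 and WWTR1, while CTGATCA was found in THBS1 and CCN2. Overlapping matches were counted on the transcript strand of the longest GENCODE 29 3′ UTR. Of tested genes with such a sequence 34.0% held at least 1 word, with 53.3% among genes called lower and 23.1% among genes called higher. The words were picked on these data, so this contrast follows from the choice and is no independent result. Differences in 3′ UTR length were not accounted for. THBS1, which fell, held 3 of the 4 words in 4100 bases, and AMOTL2, which also fell, held none in 1834 bases. VGLL1, CCN2 and LATS2, which rose, each held 1 word, and YAP1 and CCN1, which also rose, held none. TEAD1, which did not pass, held 2 of the words in the longest 3′ UTR of the set, 7264 bases. The part of these words in any change was not tested.

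Markers of cell types other than squamous cells were low. Of 10 fibroblast markers 5 were in the table and 1 was tested, COL1A1, which did not pass, and their summed level was 1.96 to 2.34 FPKM in the si-NC libraries and 2.17 to 2.39 FPKM with si-circTMEM45A. Of 10 immune markers 6 were in the table and none reached the filter (1.02 to 1.601 and 0.85 to 1.15 FPKM summed), and of 8 endothelial markers 7 were in the table and none reached it (1.70 to 2.31 and 2.04 to 2.37 FPKM). PTPRC had at most 2 reads in any library and PECAM1 at most 2, but CD3E had 22 to 41 reads per library and CDH5 59 to 125. Of 10 tested squamous markers, 6 were lower and 1, KRT17, was higher (all tested genes: 7.64% lower and 11.1% higher), and the summed level of the 12 was 1192 to 1325 FPKM with si-NC and 999.8 to 1128 FPKM with si-circTMEM45A. KRT5 went from 360 ± 11.6 to 238 ± 10.6 FPKM and TP63 from 27.8 ± 0.84 to 20.7 ± 1.79 FPKM (SD, n = 3). The part of this shift in the changes of the 10 genes was not tested.

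Whether counting used strand is not given in the sources used here, so reads of overlapping genes on the other strand may be mixed in. The overlapping genes in the table were minor. FSIP1, on the other strand of THBS1, had 7 to 24 reads per library, WWTR1-AS1 11 to 25 and LATS2-AS1 at most 3.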

How the data were processed

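PolyA-selected RNA of 6 KYSE-150 libraries was compared. The authors deposited FPKM for 29816 Ensembl genes, of which 29593 could be given a symbol. Per the submitters' processing notes, the tools were HTSeq, StringTie 2.1.6, TopHat2, HISAT2 2.2.1 and cutadapt 1.9, and the build was GRCh38. Which annotation was used, and for which step each tool, is not given in the sources used here.

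Depth and counting intervals came from reads recovered from the FPKM with union exon lengths of GENCODE 29 and a library total, which made 100% of values whole within 0.001.

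Values were log2(FPKM + 1). The 12676 genes that reached 1 FPKM in 3 or more libraries entered a two-sided limma 3.58.1 fit (R 4.3.3) that let the variance follow the mean. Its p-values were adjusted by Benjamini-Hochberg over these genes, with 0.05 as threshold. The fit was also run on simulated reads that gave all genes the same dispersion. These data need not share that setting, so the run does not show how reliable the calls here are. Python 3.11.15 with pandas 2.3.3 and matplotlib 3.10.9 was used for the rest.

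The 10 genes and the gene lists were chosen with earlier results of these data known. Named beside the 10 genes are TMEM45A, TEAD2, TEAD3, TEAD4, VGLL3 and VGLL4, up to 6 called genes in each direction of a list, and the 3 genes most correlated with YAP1, VGLL1 and THBS1, from which a selection is printed. Alternatives were no filter, a minimum of 5 FPKM, pseudocounts of 0.1 and 0.5, TPM, quantile or median-of-ratios scaling, robust estimation, no variance trend, a replicate block, leaving out each library and, added after the data were seen, limma voom on the recovered reads.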

Additional observations from a re-analysis of the deposited data

How the results depend on the processing

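No tested gene of the 10 changed direction under any alternative. Of the 7 calls, 4 held in each alternative that tested them (THBS1, LATS2, CCN2 and AMOTL2), and CCN1, VGLL1 and YAP1 lost theirs under 2, 1 and 1, as given above. The number of the 10 genes called higher was 3 in place of 5 with no filter on low values, where CCN1 and VGLL1 were lost, and 3 at FPKM of at least 5, where CCN2 and VGLL1 were not tested. Without 1 library it was 4 to 5, and 2 were lower in each fit. With no filter 728 of all genes were higher and 526 lower, 0 of the other targets were higher and 2 of the TEAD, VGLL and Hippo genes were lower. Beside that 0, 7 targets were higher at an unadjusted limma p under 0.05 in the same fit. The share of all genes at that threshold was not taken, so nothing is concluded from the 7. With the filter on low values limma called 3 targets higher and limma voom 4. Of the TEAD, VGLL and Hippo genes, 8 were lower with quantile normalization, 3 with no variance trend and 2 with the replicate block. Without 1 library the counts ranged from 775 to 1088 higher and 548 to 857 lower for all genes, 1 to 2 higher and 6 to 10 lower for the other targets, and 5 to 9 higher and 1 to 5 lower for the TEAD, VGLL and Hippo genes. The groups of 7 to 8 of the 10 genes did not overlap without 1 library. Groups with fewer libraries separate more easily, and the share of all genes in these fits was not taken, so this count has no background. The labels give the replicates only a number, so whether libraries of the same number were paired is not known. Deviations of libraries with the same number correlated at 0.026, 0.011 and 0.047, and those with different numbers at -0.046 to 0.018. With the block 1000 genes were higher and 720 lower. Depth limits ANKRD1, with 6 to 21 reads, and VGLL1, with 49 to 161.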

Other observations

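Genes with the pattern most like that of YAP1, VGLL1 and THBS1 were taken by Pearson correlation of log2(FPKM + 1) over the 6 libraries. These values are a description, since the 6 points share the 2 groups and any gene with a steady group difference scores high. At r of 0.9 or more there were 704 genes for YAP1, 771 for VGLL1 and 856 for THBS1. Closest to YAP1 were TNKS1BP1, which binds tankyrase (r = 0.9942), ATP6V0A1, a subunit of the proton pump (r = 0.9927), and BCL2L2, an antiapoptotic BCL2 relative (r = 0.992). TNKS1BP1 went from 39.0 ± 1.75 to 48.5 ± 0.93 FPKM (SD, n = 3). Closest to THBS1 were the NF-kB subunit NFKB1 (r = 0.9998), CLCC1 and the actin-binding caldesmon CALD1 (r = 0.9977 each). CALD1 went from 11.2 ± 0.34 to 8.23 ± 0.12 FPKM (SD, n = 3). NFKB1 changed less, from 10.8 ± 0.06 to 9.71 ± 0.07 FPKM, and CLCC1 did not pass (limma adjusted p = 0.0522). Closest to VGLL1 were RANBP3-DT, NIPAL2 and the repressor KLF3 (r = 0.997, 0.997 and 0.9969), of which RANBP3-DT did not pass (limma adjusted p = 0.0612).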
